A study of Mus musculus with 24 samples.

Results

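Alveolar macrophages are the resident phagocytes of the air spaces, and 9 genes known from them, Marco, Mrc1, Siglecf, Itgax, Plet1, Ear2, Chil3, Pparg and Fabp4, were followed by RNA sequencing of whole neonatal mouse lungs. They were taken by name, through the Ensembl identifier of each row, from the 36109 genes listed for the lung, and each of the 9 passed the filter on low counts that kept 16819 genes for testing. Hyperoxia did not move these genes together. In WT lungs Siglecf, Ear2 and Chil3 fell by 3.52-fold, 4.53-fold and 5.80-fold, Marco rose 2.46-fold, Mrc1, Plet1, Itgax and Pparg rose by 1.28-fold to 1.72-fold, and Fabp4 did not pass the test. In GSDMD-KO lungs the same 5 genes rose, Siglecf and Ear2 fell, and Chil3 and Fabp4 did not pass.

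Newborn mice carrying homozygous CRISPR/Cas9 knockout alleles of gasdermin D (GSDMD-KO), a deletion of 38 bases in exon 5 of Gsdmd on a C57/B6 background, and WT littermates bred from heterozygous parents breathed room air (RA, 21% O2) or hyperoxia (85% O2) from postnatal day 1 to 14. Lungs were collected on postnatal day 15 in 4 groups of 3 mice, called WT-RA, WT-O2, KO-RA and KO-O2. The knockout is constitutive, so no cell type was targeted, and the prolonged exposure is a model of bronchopulmonary dysplasia. A second set of 12 mice gave retinas, a tissue without air spaces, whose levels are given with no test.

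Alveolar macrophages descend mainly from fetal monocytes that settle in the lung around birth. Granulocyte-macrophage colony-stimulating factor (GM-CSF), made largely by the alveolar epithelium, and transforming growth factor beta induce in them the nuclear receptor PPAR-gamma and through it the adult program of surfactant lipid handling. Acquisition of the surface lectin Siglec-F in the first days of life is a hallmark of their maturation in mice. The genes differ in how closely they mark these cells. Siglecf is also expressed by eosinophils, Itgax by dendritic cells, Mrc1 by interstitial macrophages, Plet1 by some dendritic and epithelial cells, and Fabp4 and Pparg by adipocytes and other cells. In bulk lung RNA, fewer cells of a type and less RNA per cell cannot be told apart.

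The promoters of a pair of genes that rose and a pair that fell are shown, because the members moved in opposite directions in the same lungs. Each is the 250 bases before the start site of the RefSeq transcript in GRCm38.p6, read 5′ to 3′ on the strand of the gene, with capitals marking the letters GAGGAA, the core bound by ETS factors such as PU.1, and TTGCNNAA, the C/EBP sequence, each searched on both strands, so that GAGGAA on the other strand reads TTCCTC.
Marco, chr1:120505025-120505274, minus strand: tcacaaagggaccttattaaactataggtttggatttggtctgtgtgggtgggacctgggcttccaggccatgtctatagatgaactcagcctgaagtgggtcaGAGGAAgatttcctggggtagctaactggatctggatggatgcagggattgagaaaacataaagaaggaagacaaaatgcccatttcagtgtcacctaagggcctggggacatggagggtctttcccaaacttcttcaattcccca
Mrc1, chr2:14229164-14229413, plus strand: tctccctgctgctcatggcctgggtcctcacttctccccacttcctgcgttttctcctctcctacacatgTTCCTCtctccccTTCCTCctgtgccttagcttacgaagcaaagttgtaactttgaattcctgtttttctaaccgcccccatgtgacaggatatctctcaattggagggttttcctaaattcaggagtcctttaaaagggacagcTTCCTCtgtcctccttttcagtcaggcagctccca
Siglecf, chr7:43351091-43351340, plus strand: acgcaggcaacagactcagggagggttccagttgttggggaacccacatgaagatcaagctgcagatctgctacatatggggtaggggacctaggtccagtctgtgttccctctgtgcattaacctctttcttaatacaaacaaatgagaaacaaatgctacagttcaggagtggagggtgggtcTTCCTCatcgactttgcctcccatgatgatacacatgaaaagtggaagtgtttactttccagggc
Ear2, chr14:44102404-44102653, plus strand: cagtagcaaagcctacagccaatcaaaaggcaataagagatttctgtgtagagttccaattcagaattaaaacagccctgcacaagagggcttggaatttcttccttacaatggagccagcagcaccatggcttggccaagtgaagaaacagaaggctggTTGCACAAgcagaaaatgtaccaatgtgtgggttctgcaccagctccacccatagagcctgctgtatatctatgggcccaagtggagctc
The letters GAGGAA occurred in the promoters of Marco and Mrc1, which rose, and of Siglecf, which fell. Mrc1 held it at 3 places, 180, 167 and 35 bases before the start. Of the 32851 RefSeq promoters of the same length, 23.3% held GAGGAA and 9.56% held TTGCNNAA. The Ear2 promoter held TTGCNNAA and no GAGGAA. RefSeq entries were matched for 8 of the 9 genes, with 3 start sites for Pparg, of which 1 held GAGGAA. TTGCNNAA was also found in Plet1 and at another start site of Pparg, both genes that rose, and not in Chil3, which fell. A match is a description of these letters and not evidence that a factor was bound.

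The lung libraries held 28763661 to 29604254 estimated counts each. Counts of Gsdmd, the targeted gene, gave 32.2 to 42.3 CPM (counts scaled to a common library size) in WT and 11.7 to 24.8 CPM in GSDMD-KO lungs. Y-linked genes were expressed in 0 of the 3 WT-RA lungs and 1 of the 3 WT-O2 lungs, but in 2 of the 3 KO-RA lungs and 3 of the 3 KO-O2 lungs, and the groups thus differ in sex. Erythroid genes summed to 25650 and 28550 CPM in KO-O2 replicates 1 and 2 against 6089 in replicate 3, and liver genes to 153 CPM in KO-O2 replicate 1 against at most 2.74 in any other lung. Each gene is given with its Ensembl identifier and its locus in GRCm38 (GENCODE M21), and its counts cover the whole protein-coding gene. Levels of single genes in the lung are CPM with TMM library factors, listed for replicates 1, 2 and 3 of a group. Sums over marker lists, ratios that use them and levels in the retina are CPM of the library total, without those factors. Genes were tested with the quasi-likelihood test of edgeR, adjusted by Benjamini-Hochberg over the 16819 genes, SE stands for standard error on the log2 scale, and the p-values measure the spread between these mice, whose litters the labels do not give.

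**Figure D1:**
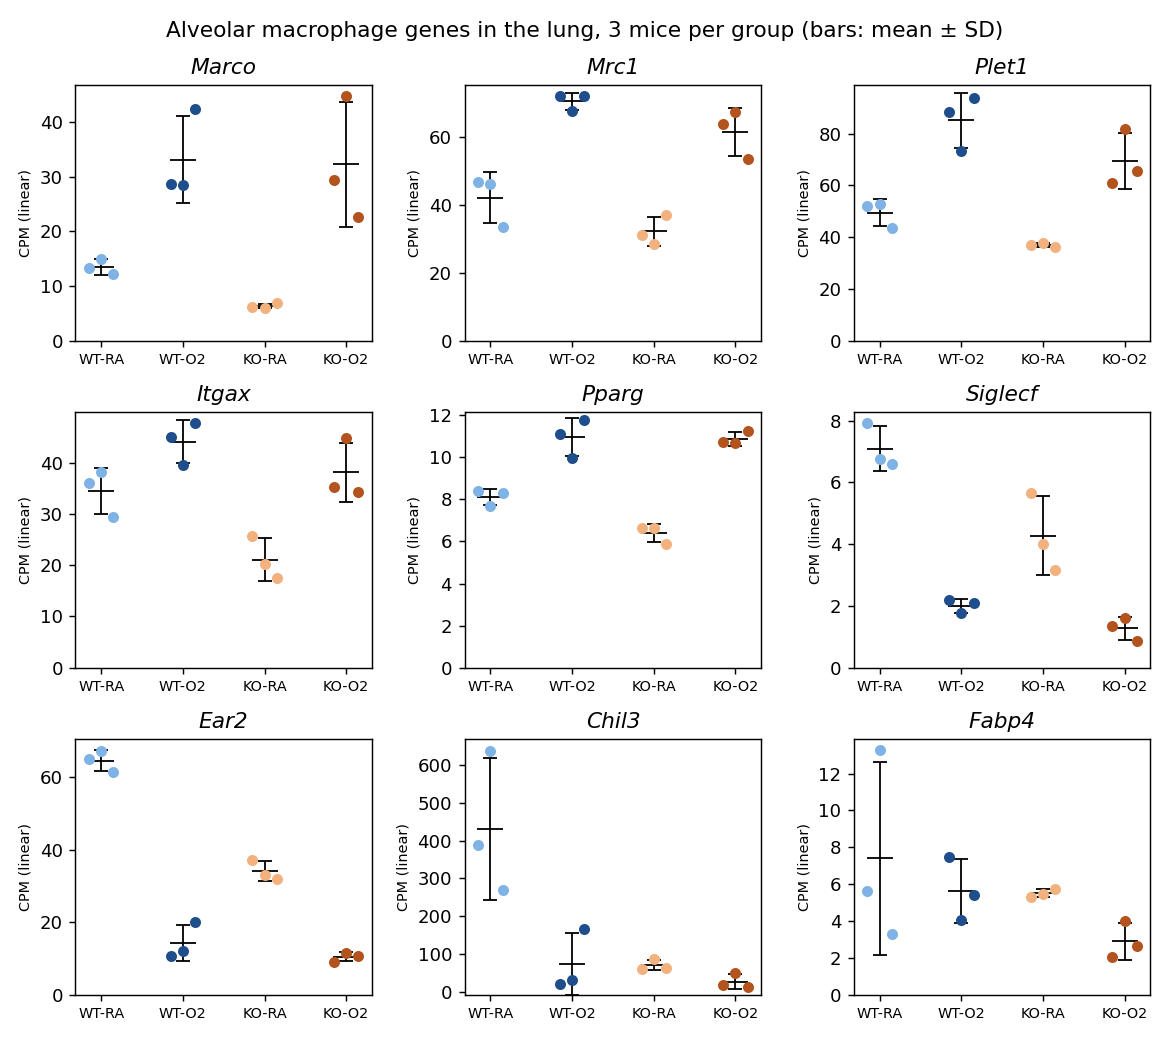
Level of each gene in CPM on a linear axis in WT-RA, WT-O2, KO-RA and KO-O2 lungs, with a point for each mouse and a bar for the mean and SD of 3 mice. Siglecf and Ear2 are lower in every hyperoxic lung than in every room air lung, while Marco, Mrc1, Plet1 and Pparg are higher in every hyperoxic lung than in every room air lung.

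Among the surface receptors, Marco (ENSMUSG00000026390, chr1:120474538-120505024, minus strand), a scavenger receptor for particles and bacteria, rose in both genotypes. It was at 13.3, 14.97 and 12.1 CPM in WT-RA lungs and at 28.6, 28.4 and 42.4 CPM in WT-O2 lungs. It was at 6.12, 6.00 and 6.82 CPM in KO-RA lungs and at 29.3, 44.8 and 22.6 CPM in KO-O2 lungs. The hyperoxic lungs of each genotype lay above its room air lungs, and every KO-RA lung lay below every WT-RA lung. The log2 fold change of Marco was 1.30 in WT (SE 0.23, adjusted p = 0.000722, edgeR) and 2.35 in GSDMD-KO lungs (SE 0.24, adjusted p = 1.29e-05, edgeR). Marco shared no word of 31 bases with another gene, so its counts do not depend on how reads were split between relatives.

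Mrc1 (ENSMUSG00000026712, chr2:14229392-14332057, plus strand), the mannose receptor CD206, rose by less than 2-fold. Its levels were 46.6, 46.2 and 33.5 CPM in WT-RA, 71.9, 67.4 and 71.8 CPM in WT-O2, 30.99, 28.4 and 36.9 CPM in KO-RA, and 63.7, 67.2 and 53.5 CPM in KO-O2 lungs. The hyperoxic and room air lungs did not overlap in either genotype. Mrc1 had log2 fold changes of 0.74 in WT (SE 0.13, adjusted p = 0.000400, edgeR) and 0.94 in GSDMD-KO lungs (SE 0.13, adjusted p = 6.67e-05, edgeR).

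Siglecf (ENSMUSG00000039013, chr7:43351341-43359531, plus strand), the sialic acid binding lectin that marks mature alveolar macrophages, moved the other way. It was at 7.92, 6.76 and 6.60 CPM in WT-RA lungs and at 2.18, 1.76 and 2.09 CPM in WT-O2 lungs. It was at 5.67, 4.00 and 3.15 CPM in KO-RA lungs and at 1.37, 1.59 and 0.870 CPM in KO-O2 lungs, where 26 to 45 counts lay behind each value. The lowest room air lung of either genotype was above the highest hyperoxic lung. Siglecf had log2 fold changes of -1.82 in WT (SE 0.24, adjusted p = 3.05e-05, edgeR) and -1.74 in GSDMD-KO lungs (SE 0.25, adjusted p = 8.08e-05, edgeR).

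Eosinophils also carry Siglec-F, and their markers were scarce in these lungs. Epx, eosinophil peroxidase, was at 0 counts in every WT-RA, WT-O2 and KO-O2 lung and at 2 counts at most in KO-RA lungs. The summed level of the 4 eosinophil markers Epx, Prg2, Ccr3 and Il5ra was 2.12 to 2.58 CPM in WT-RA and 0.513 to 1.15 in WT-O2 lungs, and 1.11 to 2.08 in KO-RA and 0.717 to 0.887 in KO-O2 lungs, lower in each hyperoxic group than in the room air lungs of its genotype. Of the 3 that could be tested, 1 fell in WT and 2 in GSDMD-KO lungs, beside 24.7% and 23.4% of all tested genes. Il5ra, the interleukin-5 receptor, had log2 fold changes of -1.62 (SE 0.40, adjusted p = 0.00522, edgeR) and -1.06 (SE 0.41, adjusted p = 0.0521, edgeR). The part of eosinophils in the fall of Siglecf was not tested.

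Itgax (ENSMUSG00000030789, chr7:128129547-128150657, plus strand), the integrin CD11c, and Plet1 (ENSMUSG00000032068, chr9:50494525-50505482, plus strand), a glycosylphosphatidylinositol-anchored surface protein of alveolar macrophages, rose together with Marco and Mrc1. Itgax was at 36.0, 38.1 and 29.3 CPM in WT-RA, 44.9, 39.5 and 47.8 CPM in WT-O2, 25.7, 20.1 and 17.5 CPM in KO-RA, and 35.3, 44.8 and 34.4 CPM in KO-O2 lungs. The gap in WT was narrow, from 38.1 CPM in the highest WT-RA lung to 39.5 CPM in the lowest WT-O2 lung. Itgax had a log2 fold change of 0.35 in WT (SE 0.15, adjusted p = 0.0659, edgeR) and 0.85 in GSDMD-KO lungs (SE 0.15, adjusted p = 0.000467, edgeR). The WT value did not pass without WT-RA replicate 3 (adjusted p = 0.192), WT-O2 replicate 1 (adjusted p = 0.136) or WT-O2 replicate 3 (adjusted p = 0.188, edgeR), and ranged from 0.0354 to 0.192 over 19 alternatives. Of 7 dendritic cell markers, which share CD11c, 4 fell and 2 rose in WT lungs, beside 24.7% and 24.5% of all tested genes. In GSDMD-KO lungs 4 fell and 1 rose, beside 23.4% and 23.3%. The summed levels of the dendritic markers were 91.8 to 133 CPM in WT-RA and 55.7 to 65.9 in WT-O2 lungs. They were 103.9 to 108 in KO-RA and 55.7 to 73.8 in KO-O2 lungs. Most of the sum was Clec9a, with means of 49.5 CPM in WT-RA and 21.8 in WT-O2 lungs, and Zbtb46, with 37.7 and 18.6. Xcr1, at means of 1.87 CPM in WT-RA and 6.55 CPM in WT-O2 lungs, rose in both genotypes, with log2 fold changes of 1.80 and 1.27. Flt3 rose in WT lungs, and Ccr7 and Cd209a fell in both genotypes. Which cells carried these transcripts was not tested.

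Plet1 was at 52.1, 53.0 and 43.6 CPM in WT-RA, 88.5, 73.3 and 93.9 CPM in WT-O2, 37.1, 37.8 and 36.3 CPM in KO-RA, and 61.0, 81.8 and 65.5 CPM in KO-O2 lungs. Neither genotype had an overlap between hyperoxic and room air lungs. Its log2 fold change was 0.78 in WT (SE 0.12, adjusted p = 0.000106, edgeR) and 0.91 in GSDMD-KO lungs (SE 0.12, adjusted p = 3.56e-05, edgeR).

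Of the secreted products, Ear2 fell in both genotypes and Chil3 in WT lungs. Ear2 (ENSMUSG00000072596, chr14:44102654-44103534, plus strand), an eosinophil-associated ribonuclease that alveolar macrophages also make, was at 65.0, 67.2 and 61.4 CPM in WT-RA lungs and at 10.7, 12.0 and 20.03 CPM in WT-O2 lungs. It was at 37.1, 33.1 and 31.9 CPM in KO-RA lungs and at 9.13, 11.6 and 10.8 CPM in KO-O2 lungs. The room air groups were far apart from their hyperoxic groups and also from each other, with the KO-RA lungs below the WT-RA lungs. The log2 fold change of Ear2 was -2.18 in WT (SE 0.18, adjusted p = 1.33e-06, edgeR) and -1.70 in GSDMD-KO lungs (SE 0.19, adjusted p = 1.43e-05, edgeR).

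Ear2 shared 60.5% of its words of 31 bases with relatives, most with Ear1, Ear10 and Ear-ps2, so the split of reads between them is uncertain. Summed over Ear2 and the 11 genes that share words with it, the counts, as CPM without TMM factors, came to 83.9 ± 5.28 in WT-RA and 16.9 ± 6.22 in WT-O2 lungs, and 46.8 ± 6.06 in KO-RA and 12.6 ± 1.38 in KO-O2 lungs (SD, n = 3 mice). The sum fell in both genotypes, with log2 fold changes of -2.31 in WT (adjusted p = 2.65e-06, edgeR) and -1.85 in GSDMD-KO lungs (adjusted p = 1.91e-05, edgeR). Ear1 itself fell from 16.7 ± 1.09 to 1.37 ± 0.309 CPM in WT lungs (SD, n = 3), whereas Ear6, of which 8.48% was shared, rose with log2 fold changes of 1.26 (SE 0.44, adjusted p = 0.0324, edgeR) and 2.04 (SE 0.49, adjusted p = 0.00452, edgeR).

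Chil3 (ENSMUSG00000040809, chr3:106147554-106167564, minus strand), the chitinase-like protein Ym1, was the most variable member between mice. It was at 388, 635 and 269 CPM in WT-RA lungs and at 22.6, 32.5 and 168 CPM in WT-O2 lungs. It was at 62.1, 86.8 and 64.3 CPM in KO-RA lungs and at 17.98, 51.4 and 14.1 CPM in KO-O2 lungs. Each hyperoxic group lay below the room air group of its genotype, and the KO-RA lungs were below every WT-RA lung and overlapped the range of the WT-O2 lungs. The log2 fold change was -2.54 in WT (SE 0.83, adjusted p = 0.0388, edgeR) and -1.36 in GSDMD-KO lungs (SE 0.82, adjusted p = 0.232, edgeR).

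The WT fall of Chil3 did not pass without WT-RA replicate 2 (adjusted p = 0.105) or WT-O2 replicate 2 (adjusted p = 0.108, edgeR), and without WT-O2 replicate 3, the highest of its group, the log2 fold change was -3.96 (adjusted p = 0.00328, edgeR). Chil3 shared 41.5% of its words, most with Chil4. Chil4, also a chitinase-like protein, was at 26.6, 337 and 41.9 CPM in WT-RA lungs, at 1.58 to 15.7 CPM in WT-O2, at 0.854 to 14.4 CPM in KO-RA and at 0.0335 to 1.17 CPM in KO-O2 lungs. Summed over Chil3 and the 4 genes that share words with it, the log2 fold change was -2.77 in WT (adjusted p = 0.0195, edgeR) and -1.82 in GSDMD-KO lungs (adjusted p = 0.0888, edgeR).

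Of the lipid program, Pparg (ENSMUSG00000000440, chr6:115360951-115490399, plus strand), the nuclear receptor PPAR-gamma, rose slightly. It was at 8.38, 7.67 and 8.29 CPM in WT-RA, 11.1, 9.98 and 11.8 CPM in WT-O2, 6.63, 6.65 and 5.90 CPM in KO-RA, and 10.7, 10.7 and 11.3 CPM in KO-O2 lungs. Hyperoxic and room air lungs did not overlap, and the WT-O2 and KO-O2 lungs overlapped. Pparg had log2 fold changes of 0.43 in WT (SE 0.11, adjusted p = 0.00613, edgeR) and 0.77 in GSDMD-KO lungs (SE 0.11, adjusted p = 9.51e-05, edgeR).

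Fabp4 (ENSMUSG00000062515, chr3:10204088-10208576, minus strand), a fatty acid binding protein and a known target of PPAR-gamma, did not pass the test in either genotype. It was at 5.62, 13.3 and 3.30 CPM in WT-RA, 7.50, 4.06 and 5.40 CPM in WT-O2, 5.33, 5.48 and 5.76 CPM in KO-RA, and 2.03, 4.00 and 2.68 CPM in KO-O2 lungs. The WT groups overlapped, and the KO-O2 lungs lay below the KO-RA lungs. Fabp4 had log2 fold changes of -0.39 in WT (SE 0.43, adjusted p = 0.501, edgeR) and -0.93 in GSDMD-KO lungs (SE 0.45, adjusted p = 0.129, edgeR). The WT-RA lung with 13.3 CPM of Fabp4 also had the highest sum of the 3 adipocyte markers, 5.81 CPM against 1.01 to 5.00 in the other lungs, and the part of fat tissue in its value was not tested. Without that lung the lower level of Fabp4 in KO-O2 than in KO-RA lungs passed (log2 fold change -0.93, adjusted p = 0.0187, edgeR). It also passed without WT-RA replicate 3, the lowest of its group (log2 fold change -0.93, adjusted p = 0.0477, edgeR). Neither lung is in a GSDMD-KO group, so the estimate stayed in place and the spread shared by the fit changed.

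Counted together, 4 of the 9 genes were called in WT lungs with an adjusted p under 0.1 and at least a 2-fold change (Marco, Chil3, Siglecf and Ear2), where 11.6% of all tested genes were called. In GSDMD-KO lungs 3 were called (Marco, Siglecf and Ear2), against 10.6% of all tested genes. By adjusted p alone, 5 rose in WT lungs against 24.5% of all genes and 3 fell against 24.7%. In GSDMD-KO lungs 5 rose against 23.3% of all genes and 2 fell against 23.4%. The 3 hyperoxic and 3 room air lungs did not overlap for 8 of the 9 genes in WT, where 49.8% of all genes had no overlap, and for 9 of 9 in GSDMD-KO, where 52.4% had none. The median log2 fold change of the 9 genes was 0.36 in WT and 0.77 in GSDMD-KO lungs, beside -0.01 and -0.01 over all tested genes.

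Comparing lungs of like Y-linked expression left most hyperoxia values in place. Each comparison was the fit with 1 lung left out, WT-O2 replicate 3 for WT and KO-RA replicate 1 for GSDMD-KO. Its spread and adjusted p thus drew on all remaining lungs, with and without Y-linked expression. Among the lungs without Y-linked expression, 3 WT-RA against 2 WT-O2, the log2 fold change was 1.08 for Marco, -1.84 for Siglecf and -2.50 for Ear2 (adjusted p = 0.00221, 0.000288 and 2.21e-08, edgeR). Itgax did not pass in that comparison, with 0.30 (adjusted p = 0.188, edgeR). Among the lungs with it, 2 KO-RA against 3 KO-O2, the values were 2.33 for Marco, -1.49 for Siglecf and -1.63 for Ear2 (adjusted p = 0.000164, 0.000430 and 0.000111, edgeR).

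**Figure D2:**
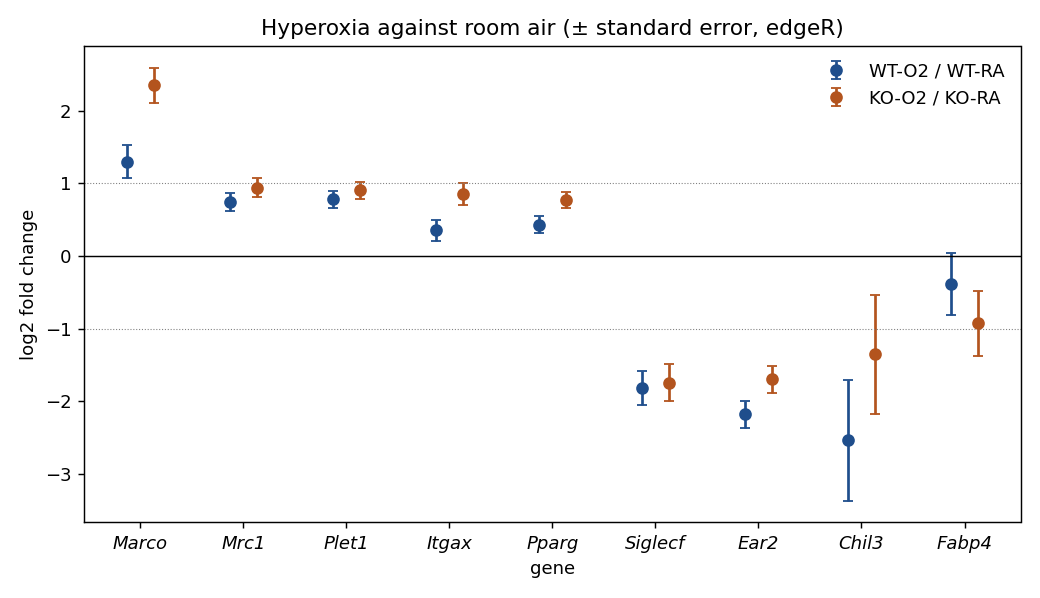
Log2 fold change of each gene in hyperoxia against room air, in WT (blue) and GSDMD-KO lungs (brown), with bars for the standard error of the edgeR fit on 3 mice per group and dotted lines at a 2-fold change. Marco, Mrc1, Plet1, Itgax and Pparg lie above 0 and Siglecf, Ear2, Chil3 and Fabp4 below it in both genotypes.

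The next comparison was of genotypes in room air. All 9 genes had lower mean levels in the knockout, but only Ear2 and Itgax passed an adjusted p of 0.1, and 0 were called at a fold of at least 2, where 0.137% of all tested genes were called. The log2 difference, GSDMD-KO minus WT, was -0.92 for Ear2 (SE 0.18, adjusted p = 0.0639, edgeR) and -0.71 for Itgax (SE 0.15, adjusted p = 0.0856, edgeR), 2 of 9 genes beside 0.345% of all genes that passed as lower. The KO-RA lungs lay below the WT-RA lungs without overlap for 7 of the 9, where 7.9% of all genes did, and the exceptions were Mrc1 and Fabp4. Before adjustment 8 had a p under 0.05, beside 10.5% of all tested genes. The lower levels were not particular to the 9 members. Of 9 other tested genes known from alveolar macrophages 9 were lower, 7 with p under 0.05 before adjustment and 1 with adjusted p under 0.1 (edgeR). Of 9 pan-macrophage markers 7 were lower and 2 higher, 6 with p under 0.05 before adjustment and 2 with adjusted p under 0.1 (edgeR). Marco had a log2 difference of -1.09 (SE 0.24, adjusted p = 0.113, edgeR) and Chil3 of -2.60 (SE 0.83, adjusted p = 0.319, edgeR). With DESeq2 Marco (adjusted p = 0.000469) and Chil3 (adjusted p = 0.0776) were called.

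The room air difference is confounded in part with sex, since Y-linked expression was present in 0 of 3 WT-RA and 2 of 3 KO-RA lungs. With Y-linked expression as a covariate neither gene passed, Ear2 with a log2 difference of -1.10 (adjusted p = 0.158, edgeR) and Itgax with -0.63 (adjusted p = 0.406, edgeR). The 1 KO-RA lung without Y-linked expression was below the lowest of the 3 WT-RA lungs, all of which lack it too, in 8 of the 9 genes, with 37.1 against 61.4 CPM for Ear2 and 25.7 against 29.3 CPM for Itgax. Fabp4 was the exception, and of all tested genes 24.2% were below in the same way. That lung, KO-RA replicate 1, differed from the other KO-RA lungs in further genes. Its erythroid genes summed to 27250 CPM against 17740 and 12970. Its Mpo, a neutrophil gene, was at 35.8 CPM against 0.379 and 0.237. Neither call held without WT-RA replicate 1 or 2 or KO-RA replicate 2 or 3, with adjusted p values of 0.137 to 0.295 for Ear2 and 0.175 to 0.344 for Itgax (edgeR). The Itgax call was also lost without WT-O2 replicate 1 or 3 or KO-O2 replicate 1 (adjusted p = 0.112 to 0.116, edgeR). With only the KO-RA and WT-RA lungs in the fit it was lost too (-0.71, adjusted p = 0.164, edgeR). The Ear2 call was lost when the counts of its relatives were summed (-0.86, adjusted p = 0.113, edgeR).

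The same comparison was made in hyperoxia. Of the 9 genes, 0 passed an adjusted p of 0.1 in edgeR's quasi-likelihood test, beside 0.0416% of all tested genes, and DESeq2 called 0. Before adjustment 3 had a p under 0.05, Siglecf, Ear2 and Plet1, beside 6.21% of all tested genes. Siglecf had a log2 difference of -0.66 (SE 0.26, adjusted p = 0.752, edgeR), Ear2 of -0.44 (SE 0.19, adjusted p = 0.774, edgeR) and Plet1 of -0.30 (SE 0.12, adjusted p = 0.752, edgeR). Lungs of KO-O2 were below those of WT-O2 without overlap for Siglecf, Fabp4 and Mrc1, 3 of the 9, where 5.8% of all genes were. Marco and Pparg had log2 differences of -0.04 (SE 0.22) and -0.01 (SE 0.11), near 0 with standard errors that leave room for small differences. The only WT-O2 lung with Y-linked expression was above the highest of the 3 KO-O2 lungs in 8 of the 9 genes, Marco being the exception, as in 28.3% of all tested genes.

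**Figure D3:**
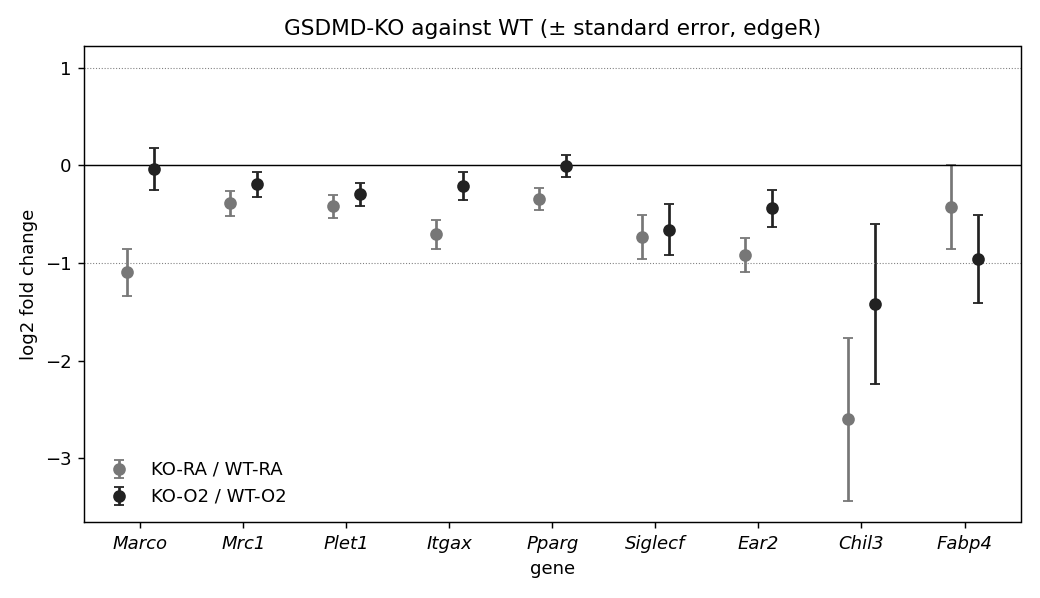
Log2 difference of each gene between GSDMD-KO and WT lungs in room air (grey) and in hyperoxia (black), with bars for the standard error of the edgeR fit on 3 mice per group. In room air the values run from -0.34 for Pparg to -2.60 for Chil3, and in hyperoxia Marco and Pparg lie close to 0.

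The interaction asks whether GSDMD-KO changed the response to hyperoxia itself. Here 0 of the 9 genes passed an adjusted p of 0.1 in edgeR's quasi-likelihood test, beside 0.00595% of all tested genes, with 2 under a p of 0.05 before adjustment, beside 6.72% of them. Marco had the larger rise in GSDMD-KO lungs, by 1.06 on the log2 scale (SE 0.33, adjusted p = 0.534, edgeR), and Itgax by 0.50 (SE 0.21, adjusted p = 0.684, edgeR). The adjusted p of Marco was 0.0969 with DESeq2, and 0.0969 to 0.973 over 17 alternatives. The lower KO-RA start and the like KO-O2 and WT-O2 levels of Marco, 32.3 ± 11.4 and 33.1 ± 8.01 CPM (SD, n = 3), are the values behind it.

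Per kilobase of transcript the members could be ranked within a lung. In WT-RA lungs Chil3 stood first at 280 CPM per kb, before Ear2 at 89.8 and Plet1 at 29.3 CPM per kb, and none of these neighbours overlapped. Itgax, Fabp4, Mrc1 and Marco followed at 8.52, 8.26, 7.83 and 7.00 CPM per kb, with overlap between neighbours, then Pparg at 3.82 and Siglecf at 2.72 CPM per kb. In WT-O2 lungs Plet1 had the highest mean, 50.5 CPM per kb, but overlapped Chil3 at 48.2 CPM per kb, and Chil3, Ear2 and Marco overlapped their neighbours too. Plet1 was first in KO-O2 lungs at 41.1 CPM per kb, above Chil3 at 18.1, Marco at 16.8 and Ear2 at 14.6 CPM per kb. In KO-RA lungs Ear2 at 47.4 and Chil3 at 46.2 CPM per kb overlapped at the top. Siglecf was last in each group, at 0.489 CPM per kb in KO-O2 lungs.

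Ratios within a lung show the opposite movements without reference to library size. Siglecf stood at 0.208 ± 0.0261 of the Itgax CPM in WT-RA and 0.200 ± 0.0201 in KO-RA lungs, and at 0.0456 ± 0.00259 in WT-O2 and 0.0332 ± 0.00700 in KO-O2 lungs (SD, n = 3). Ear2 stood at 1.89 ± 0.178 and 1.64 ± 0.192 of the Itgax CPM in WT-RA and KO-RA lungs, and at 0.320 ± 0.0913 and 0.277 ± 0.0317 in WT-O2 and KO-O2 lungs. For both ratios the room air lungs of the genotypes overlapped and no hyperoxic lung reached a room air lung. Mrc1 per Marco was 3.12 ± 0.372 in WT-RA and 2.20 ± 0.439 in WT-O2 lungs, and 5.07 ± 0.341 in KO-RA and 2.01 ± 0.456 in KO-O2 lungs, so that here the KO-RA lungs stood above the other groups.

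**Figure D4:**
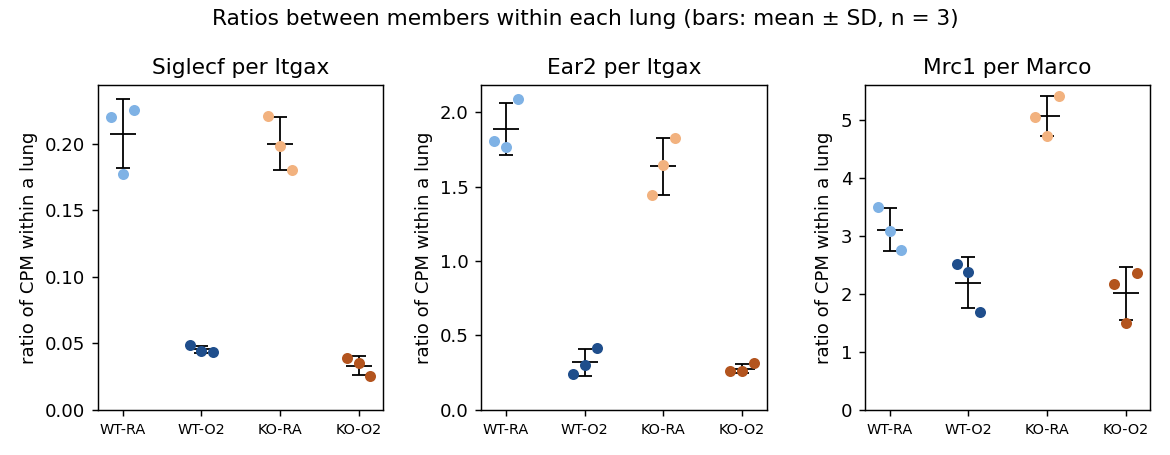
Siglecf and Ear2 as a ratio to Itgax, and Mrc1 as a ratio to Marco, each the ratio of CPM within a lung, with a point for each of 3 mice per group and bars for the mean and SD. Siglecf per Itgax lies between 0.178 and 0.225 in the room air lungs and between 0.0253 and 0.0486 in the hyperoxic lungs.

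Most pan-macrophage markers rose with hyperoxia, which stands beside every rise above. The 9 markers, among them Cd68, Adgre1 and Cd14, summed to 579 to 687 CPM in WT-RA and 783 to 813 in WT-O2 lungs. In KO-RA and KO-O2 lungs they summed to 573 to 631 and 720 to 768 CPM. In WT lungs 5 rose and 1 fell, beside 24.5% and 24.7% of all tested genes. In GSDMD-KO lungs 7 rose and 2 fell, beside 23.3% and 23.4%. Cd68, a lysosomal protein of macrophages, had log2 fold changes of 1.03 (SE 0.14, adjusted p = 5.61e-05, edgeR) and 1.33 (SE 0.14, adjusted p = 7.21e-06, edgeR). Ptprc, the pan-leukocyte phosphatase CD45, fell, with log2 fold changes of -0.90 in WT (SE 0.16, adjusted p = 0.000768, edgeR) and -0.65 in GSDMD-KO lungs (SE 0.16, adjusted p = 0.00696, edgeR). Csf1r, Mertk and Tyrobp did not pass in WT lungs. Lamp2, a lysosomal protein, had the highest level of the 9 markers, with means of 285 CPM in WT-RA and 396.5 CPM in WT-O2 lungs. In KO-RA and KO-O2 lungs it was at 295.5 and 389 CPM. The sums, and ratios to them, therefore follow Lamp2 in large part.

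Set against 1000 CPM of those pan-macrophage markers, Itgax was at 53.5 ± 3.78 in WT-RA and 55.3 ± 5.18 in WT-O2 lungs, and Pparg at 12.7 ± 1.40 and 13.7 ± 1.11 (SD, n = 3), with overlapping mice. Marco was at 20.95 ± 1.70 and 41.6 ± 10.5, and Mrc1 at 65.0 ± 6.52 and 88.3 ± 2.69, without overlap. Siglecf was at 11.0 ± 0.684 and 2.52 ± 0.253, and Ear2 at 101 ± 5.74 and 17.9 ± 6.53, also without overlap. In KO-RA and KO-O2 lungs Itgax was at 35.8 ± 7.86 and 50.3 ± 7.79, and Pparg at 10.8 ± 1.10 and 14.4 ± 0.527, here without overlap of the mice. The other GSDMD-KO values were 10.7 ± 0.343 and 42.6 ± 15.1 for Marco, 7.27 ± 2.31 and 1.68 ± 0.485 for Siglecf, and 57.7 ± 5.89 and 13.9 ± 1.75 for Ear2.

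Most markers of interstitial and monocyte-derived macrophages rose too. Of 15 markers 12 rose and 0 fell in WT lungs, beside 24.5% and 24.7% of all tested genes. In GSDMD-KO lungs 11 rose and 0 fell, beside 23.3% and 23.4%. The median log2 fold change was 1.11 in WT and 0.84 in GSDMD-KO lungs. The 15 markers summed to 301 to 449 CPM in WT-RA and 905 to 1033 in WT-O2 lungs, and 373 to 456 in KO-RA and 766 to 918 in KO-O2 lungs. Lyve1 had the highest level of the 15, with means of 174 CPM in WT-RA and 501 CPM in WT-O2 lungs. In KO-RA and KO-O2 lungs Lyve1 was at 218 and 500 CPM. These sums therefore follow Lyve1 in large part, and which cells carried it was not tested. Spp1, osteopontin, rose by 2.90 in WT (SE 0.21, adjusted p = 3.43e-07, edgeR) and 2.99 in GSDMD-KO lungs (SE 0.21, adjusted p = 4.27e-07, edgeR) on the log2 scale, and Gpnmb, a glycoprotein of lipid-laden macrophages, by 2.54 and 2.73. Trem2, a lipid-sensing receptor, rose by 1.59 and 1.71, and C1qb, a complement component made by tissue macrophages, by 1.11 and 0.87. Their part in the rises of Marco and Mrc1 was not tested.

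Other genes known from alveolar macrophages also went in both directions. Of 10 listed genes 9 were tested, and 3 rose and 4 fell in WT, beside 24.5% and 24.7% of all tested genes. In GSDMD-KO lungs 5 rose and 4 fell, beside 23.3% and 23.4%. Ear1 fell with log2 fold changes of -3.60 in WT (SE 0.25, adjusted p = 7.55e-08, edgeR) and -3.10 in GSDMD-KO lungs (SE 0.25, adjusted p = 4.01e-07, edgeR). Cidec, a lipid droplet protein, fell with log2 fold changes of -2.88 and -3.10, and Krt79, a keratin, with -2.23 and -2.36. Slc39a2, a zinc transporter, rose by 2.19 (SE 0.19, adjusted p = 4.93e-07, edgeR) and 2.54 (SE 0.19, adjusted p = 1.79e-07, edgeR). The median log2 fold change of the list was -0.02 in WT and 0.50 in GSDMD-KO lungs.

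The genes of the signals that build the program were followed in whole-lung RNA. Which cells carried their transcripts was not tested, so these are levels of the whole lung and not of alveolar macrophages. Of 18 growth factor, receptor and transcription factor genes 11 rose and 1 fell in WT lungs, beside 24.5% and 24.7% of all tested genes. In GSDMD-KO lungs 9 rose and 3 fell, beside 23.3% and 23.4%. The median log2 fold changes were 0.35 in WT and 0.24 in GSDMD-KO lungs. Bhlhe40, a transcription factor of alveolar macrophage self-renewal, rose by 1.86 (SE 0.10, adjusted p = 6.57e-09, edgeR) and 1.87 (SE 0.10, adjusted p = 7.51e-09, edgeR) on the log2 scale. Itgb6, the integrin subunit that activates transforming growth factor beta, rose by 1.06 and 1.36, and its receptor gene Tgfbr2 by 0.81 and 0.83, while Stat5b, a transducer of GM-CSF signals, fell, with -0.54 and -0.47. Csf2, which encodes GM-CSF and is named here after its values were seen, was at 2.02, 3.23 and 2.55 CPM in WT-RA and 3.14, 4.20 and 4.39 CPM in WT-O2 lungs, a log2 fold change of 0.59 (SE 0.25, adjusted p = 0.0760, edgeR). In GSDMD-KO lungs Csf2 had a log2 fold change of 0.02 (SE 0.26, adjusted p = 0.961, edgeR), and the difference of these responses was -0.57 (SE 0.36, adjusted p = 0.847, edgeR).

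Lipid handling genes known as targets of PPAR-gamma or of the liver X receptor went in both directions. Of 11 genes 2 rose and 4 fell in WT, where 24.5% and 24.7% of all genes did, and 3 rose and 5 fell in GSDMD-KO lungs, where 23.3% and 23.4% did, with median log2 fold changes of -0.14 and -0.25. Cd36, a fatty acid and lipoprotein receptor, fell with log2 fold changes of -1.66 (SE 0.14, adjusted p = 4.58e-07, edgeR) and -1.47 (SE 0.14, adjusted p = 1.63e-06, edgeR). Fabp5, a fatty acid binding protein, fell, with -0.62 and -0.46, as did Nr1h3, the liver X receptor alpha, with -0.44 and -0.61, while Lpl, lipoprotein lipase, rose by 0.50 and 0.93. Cd36 and Fabp4 are also genes of capillary endothelium, and the 6 endothelial markers summed to 3603 to 3902 CPM in WT-RA and 2703 to 3121 in WT-O2 lungs, and 3377 to 3480 in KO-RA and 2558 to 3114 in KO-O2 lungs. The part of the endothelium in these falls was not tested.

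**Figure D5:**
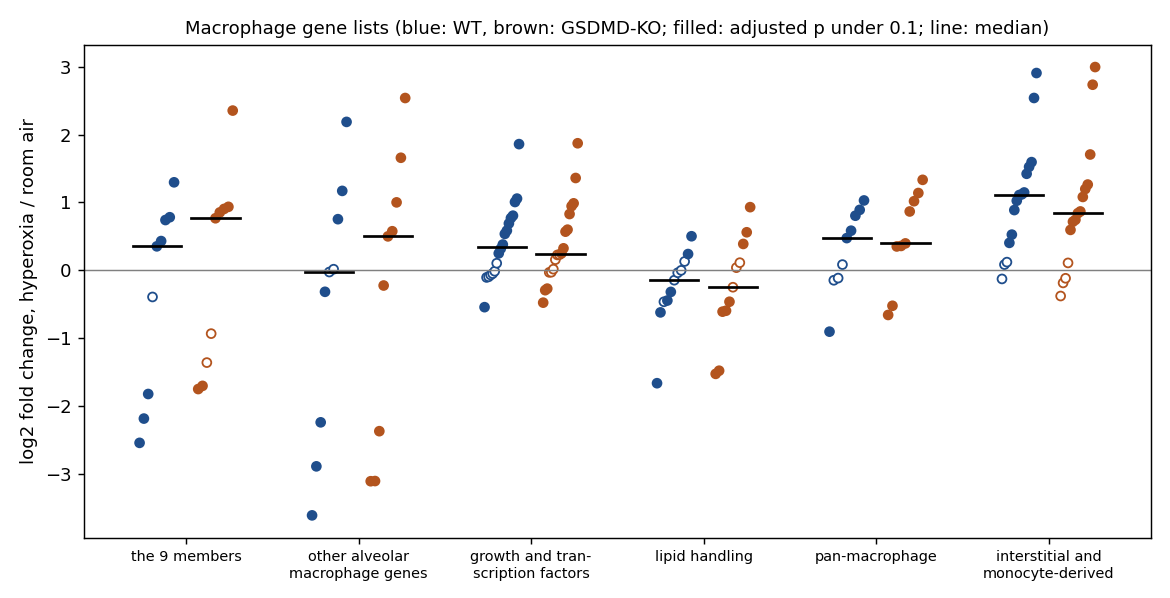
Log2 fold change in hyperoxia of each tested gene of 6 lists, in WT (blue) and GSDMD-KO lungs (brown), with filled points at an adjusted p under 0.1 and a line at the median of the list. The 9 alveolar macrophage genes spread to both sides of 0, while the median of the interstitial and monocyte-derived markers is 1.11 in WT and 0.84 in GSDMD-KO lungs.

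The genes whose centred log2 CPM profile over the 12 lungs was nearest to each member, by root mean square difference among 14678 genes of at least 1 CPM, gave another description. For Mrc1 they were Adgre1, the macrophage marker F4/80, at 0.111, Lpl at 0.116 and Itgam at 0.134. For Ear2 they were Dnah8 at 0.341, Siglecf at 0.342 and Iglc2 at 0.344, and for Siglecf they were Cd2 at 0.305, Ighm at 0.310 and Fpr2 at 0.328. Chil3 had Fcgbp, Ear2 and Fer1l6, all at more distant values of 0.856 to 0.897. Clec4n, Angpt2 and Gdf5 were nearest to Marco, at 0.307 to 0.320.

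Pparg had Frrs1, Phyh and Gnpda1, Plet1 had Chil1, Mreg and Lgals3bp, Itgax had Naip2, Ifi27l2a and Tbx20, and Fabp4 had Adh7, Scara5 and Thrsp. Among members, Siglecf ranked second for Ear2, Ear2 ranked 6 for Siglecf, Plet1 ranked 5 for Mrc1 and Mrc1 ranked 7 for Plet1. The 12 lungs share the same 4 groups, so likeness here is mostly likeness over groups.

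In the retinas, which have no alveolar macrophages, 3 of the genes were nearly absent. Marco had at most 1 count, Chil3 at most 4 and Ear2 at most 6 counts in any of the 12 retinas. Fabp4 was the member with the highest retinal level, at a mean CPM of 3.16 ± 1.70 in WT-RA and 11.5 ± 3.77 in KO-O2 retinas (SD, n = 3). The retinas came from room air mice and from mice that spent postnatal days 7 to 12 in 75% O2, were collected on postnatal day 18 and were normalized apart from the lungs, so their levels stand beside those of the lung and were not tested against them.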

How the data were processed

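RNA was extracted from whole lungs and retinas, 1 mouse per library, and sequenced at BGI Genomics. The authors assigned reads to mouse transcripts with kallisto after FastQC and summed them per gene, and the authors deposited expected counts (estimated counts), not normalized, in 1 table per tissue. The labels name mm10 and the supplement a later build. The tables hold gene identifiers, which were given symbols from GENCODE M21 for 35816 of 36109 lung genes. The share of values within 0.001 of a whole number was 44.9% in the lung and 0.35% in the retina table.

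Lung counts were rounded and fitted in R 4.3.3 with edgeR 4.0.16: all 12 lungs, a term per group, TMM, filterByExpr, glmQLFit with robust=TRUE and 5 contrasts. The fit was tested on simulated data. A gene was called with a 2-fold change, p under 0.05 and adjusted p under 0.1 (for the interaction, adjusted p alone). The alternatives included DESeq2 1.42.0, RLE factors, no filter, only the groups compared, a Y-linked covariate, erythroid and liver genes left out, CPM of the library total, each lung left out and, chosen after seeing the data, counts summed over genes of shared sequence. Shared sequence was measured as words of 31 bases common to GENCODE transcripts.

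The members and lists were chosen with earlier results of these data known. Named genes were the members, the 4 with the smallest p in WT hyperoxia of the macrophage, growth factor and lipid lists, and the 3 genes nearest to each member in profile. Further genes were named outside that rule to describe a list or a lung, among them Csf1r, Mertk, Tyrobp, Lamp2, Lyve1, Csf2, relatives of members and the eosinophil and dendritic cell markers. Genes of few CPM carry a counting error that the depth of 28763661 to 29604254 counts per lung sets, and for the rest the variation among 3 mice sets the limit.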

Additional observations from a re-analysis of the deposited data

Results flagged for a closer look

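The retinas enter no test. Among members with more than 3 counts in each hyperoxic retina of a genotype, 3 of 6 in WT and 1 of 5 in GSDMD-KO were higher in every hyperoxic mouse than in every room air mouse, as were 33.2% and 16.4% of all retinal genes over that count. Fabp4 was at 4.61 CPM in the lowest WT-O2 retina, against 4.55 in the highest WT-RA retina, and at 8.82 CPM in the lowest KO-O2 retina, against 6.25 in the highest KO-RA retina. Mrc1 was at 1.41 CPM in the lowest WT-O2 retina, against 0.850 in the highest WT-RA retina. Itgax was at 0.322 CPM in the lowest WT-O2 retina, where 8 to 17 counts lay behind each value, against 0.0739 in the highest WT-RA retina. Ear2 in WT, at 3 to 6 counts in the WT-O2 and 0 in the WT-RA retinas, and Itgax in GSDMD-KO retinas were also higher in every hyperoxic mouse but had 3 counts in the lowest. These differences were not tested.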

How the results depend on the processing

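No log2 fold change of the 9 genes that passed its test changed sign under any alternative, whereas that of Fabp4 in WT hyperoxia, which did not pass, ranged from -0.74 to 0.35. Siglecf, Ear2, Marco, Mrc1, Plet1 and Pparg passed an adjusted p of 0.1 in both hyperoxia comparisons under every alternative run, with highest adjusted p values of 0.0323 for Pparg in WT and 0.000801 for Pparg in GSDMD-KO lungs. With a fold of 1.5 as the limit, 7 of the 9 genes were called in GSDMD-KO hyperoxia, and 3923 genes in all in WT and 3595 in GSDMD-KO hyperoxia. Leaving out 1 lung at a time gave 3 to 4 of the 9 genes in WT and 3 to 4 in GSDMD-KO hyperoxia, with 1865 to 2069 and 1692 to 1855 genes in all.

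For genotype in room air, 0 of the 9 genes were called in the fit of 12 lungs, 1 with only the groups compared, 2 with a fold of 1.5 and 2 with DESeq2. In all, 23 genes were called, 10 with only the groups compared, 50 with a fold of 1.5, 70 with DESeq2, 0 with the Y-linked covariate and 1 to 109 with 1 lung left out. For genotype in hyperoxia 4 genes were called, 2 with the Y-linked covariate, 8 with only the groups compared, 32 with DESeq2 and 1 to 23 with 1 lung left out. For the interaction 1 gene was called, 2 without the filter, 0 with the covariate, 110 with DESeq2 (1 of the 9, Marco) and 0 to 45 with 1 lung left out. The cause of these changes was not tested. Fabp4 in GSDMD-KO hyperoxia passed with only the groups compared (adjusted p = 0.00439, edgeR) and with DESeq2 (adjusted p = 0.0550), and Chil3 with the Y-linked covariate (adjusted p = 0.0822, edgeR) and without WT-O2 replicate 3 (adjusted p = 0.0805, edgeR). RLE factors moved the median of all genes by at most 0.0034 on the log2 scale. No paired analysis was possible because each lung came from a different mouse and the labels do not give litters.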
